A study of Mus musculus with 2 samples.

Results

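The cytosolic ribosomal protein genes of the mouse were taken as the protein-coding genes named Rpl or Rps plus a number, together with Rplp0, Rplp1, Rplp2 and Rpsa. Names of the Rps6k and Rps19bp families, which are kinases and a binding protein, were left out. Of the 21755 protein-coding genes annotated on the 19 autosomes and X, 91 met this rule. They comprised 77 standard genes, of which 46 encode proteins of the large subunit and 31 proteins of the small subunit. A further 8 were paralogues (Rpl3l, Rpl7l1, Rpl10l, Rpl22l1, Rpl36al, Rpl39l, Rps27l and Rps27rt), and 6 carried the suffix -ps of pseudogenes although they are annotated as protein-coding. The rule used names alone and no measured value.

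Each ribosome joins a small subunit, which reads the mRNA, with a large subunit, which forms the peptide bonds, and a standard ribosome holds 1 copy of nearly every ribosomal protein. The proteins are needed in matched amounts although their genes are scattered over the chromosomes. Their promoters lack a common upstream element but typically start transcription at a short run of pyrimidines, which becomes the terminal oligopyrimidine tract through which translation of these mRNAs is controlled. Blood cell precursors are sensitive to loss of a ribosomal protein gene copy, which in people causes Diamond-Blackfan anaemia.

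Open chromatin was mapped with ATAC-seq, in which the Tn5 transposase cuts accessible DNA, in granulocyte monocyte progenitors (GMP), which in the bone marrow give rise to neutrophils and monocytes. The cells came from male adult C57BL/6J mice of 5 to 6 weeks, and 50000 cells entered each of 2 libraries. The libraries are biological replicates 1 and 2 of a single group, with separate biosamples and the same donor label, and sequencing instruments are named for replicate 1 only. Nothing in the labels says that the replicates came from separate animals, so a difference between them may be technical.

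The deposited files list accessible regions on mm10 with the authors' fold enrichment. This is a ratio for which the sources used here name no denominator. The lists hold no read counts, so the depth is unknown. The main list rests on both replicates and held 75148 regions once rows that overlap by 1 bp or more were joined. A gene was called open where a region had its summit, the base of highest signal, within 1000 bp of the transcription start site (TSS) of any of its protein-coding transcripts. For a gene with several such regions the one with the highest fold was used. As a check of the cell label, 15 of 16 GMP and myeloid marker genes were open, all but Prtn3, beside 61.4% of all protein-coding genes. Among markers of other cells, 3 of 6 erythroid, 2 of 4 B cell, 1 of 5 T cell, 2 of 4 megakaryocyte, 0 of 4 hepatocyte and 3 of 3 stromal genes were open. Several of these shares are near that of all genes, and 0 of the 4 megakaryocyte genes were open in both replicates. Whether other cells contributed to the values below was not tested. With 1 group there was no contrast to test, and values of the ribosomal protein genes are set beside the same values over all genes.

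The promoter sequences of 11 genes are printed first, because the results on position and sequence refer to them. They are the standard genes with the 3 highest folds (Rpl27, Rpl31 and Rps26) and the 3 lowest (Rpl36, Rpl7 and Rpl35), the Diamond-Blackfan genes Rps19, Rpl5 and Rpl11, the stalk gene Rplp0, and Rpsa. Each runs 5′ to 3′ on the gene's strand from 90 bases before to 25 bases after the reference TSS, which is counted as 0, in the GRCm38 reference. The intervals are chr11:101442208-101442323 on the plus strand for Rpl27, chr1:39367752-39367867 (plus) for Rpl31, chr10:128626722-128626837 (minus) for Rps26, and chr17:56613326-56613441 (plus) for Rpl36. Those of Rpl7 and Rpl35 are chr1:16104637-16104752 (minus) and chr2:39005599-39005714 (minus). Those of the Diamond-Blackfan genes are chr7:24884281-24884396 (plus) for Rps19, chr5:107900412-107900527 (plus) for Rpl5 and chr4:136053368-136053483 (minus) for Rpl11. Those of Rplp0 and Rpsa are chr5:115559377-115559492 (plus) and chr9:120127599-120127714 (plus). Capitals mark matches to the motifs searched, which are an SP/KLF site at Rps19 and a pair of them at Rpl31, an ETS site near the 3′ end at Rpl31 and Rpl11, a pyrimidine initiator at Rpl5 and a pair of NFY sites at Rplp0.
Rpl27: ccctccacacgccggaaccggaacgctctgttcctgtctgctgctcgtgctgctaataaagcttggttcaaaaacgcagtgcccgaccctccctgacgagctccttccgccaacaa
Rpl31: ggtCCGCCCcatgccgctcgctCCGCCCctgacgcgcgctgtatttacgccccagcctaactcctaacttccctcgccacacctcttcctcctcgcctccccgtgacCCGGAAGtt
Rps26: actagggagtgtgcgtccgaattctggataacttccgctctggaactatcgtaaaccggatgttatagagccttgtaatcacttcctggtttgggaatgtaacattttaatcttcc
Rpl36: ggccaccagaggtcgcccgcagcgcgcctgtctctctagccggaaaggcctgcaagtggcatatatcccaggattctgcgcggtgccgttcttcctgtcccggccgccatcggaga
Rpl7: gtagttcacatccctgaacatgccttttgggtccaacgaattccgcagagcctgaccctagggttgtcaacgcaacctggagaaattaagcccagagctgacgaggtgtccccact
Rpl35: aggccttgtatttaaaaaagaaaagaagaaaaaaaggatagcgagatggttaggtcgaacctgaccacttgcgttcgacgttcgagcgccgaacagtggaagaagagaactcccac
Rps19: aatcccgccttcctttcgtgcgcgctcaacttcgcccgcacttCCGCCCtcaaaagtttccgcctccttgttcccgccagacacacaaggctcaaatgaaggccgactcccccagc
Rpl5: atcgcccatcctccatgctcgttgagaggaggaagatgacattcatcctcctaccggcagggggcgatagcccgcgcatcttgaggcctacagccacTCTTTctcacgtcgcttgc
Rpl11: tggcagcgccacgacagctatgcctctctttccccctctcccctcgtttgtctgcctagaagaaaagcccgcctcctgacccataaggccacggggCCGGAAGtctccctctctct
Rplp0: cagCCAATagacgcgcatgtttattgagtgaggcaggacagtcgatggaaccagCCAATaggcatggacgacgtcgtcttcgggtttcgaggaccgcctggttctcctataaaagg
Rpsa: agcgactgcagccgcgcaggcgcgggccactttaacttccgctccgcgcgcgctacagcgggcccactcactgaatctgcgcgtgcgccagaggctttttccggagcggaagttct

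Another 3 promoters were added after their values had been seen, because each holds both an ETS site and a pyrimidine initiator within the same 116 bases. Rpl26 lies at chr11:68901493-68901608, Rpl37 at chr15:5116555-5116670 and Rpl8 at chr15:76903988-76904103, all on the plus strand. The ETS site lies at -13 to -7 in Rpl26 and at -27 to -21 in Rpl8, where it overlaps an SP/KLF match by its first base. Rpl37 has an ETS site at -55 to -49 and another, read on the opposite strand, at 2 to 8. The initiator starts at 7, 11 and 8 in Rpl26, Rpl37 and Rpl8, and the other capitals are SP/KLF sites.
Rpl26: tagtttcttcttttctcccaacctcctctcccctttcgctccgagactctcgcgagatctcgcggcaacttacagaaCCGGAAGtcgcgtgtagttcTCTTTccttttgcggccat
Rpl37: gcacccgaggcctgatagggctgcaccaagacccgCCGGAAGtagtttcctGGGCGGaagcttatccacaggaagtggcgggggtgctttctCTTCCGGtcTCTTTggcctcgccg
Rpl8: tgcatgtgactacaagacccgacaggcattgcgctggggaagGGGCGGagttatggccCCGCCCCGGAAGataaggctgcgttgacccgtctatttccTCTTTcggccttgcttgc

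Every standard ribosomal protein gene was open. The promoter call was made for 77 of 77 standard genes and for 81 of all 91, against 61.4% of all protein-coding genes. All 81 were also covered by a region in each replicate's own list, which makes 89.0% of the 91, against 55.8% of all genes. Of the 13357 open genes of any kind, 12144 were covered in both replicates. Both subunits were complete, with 46 of 46 large subunit and 31 of 31 small subunit genes. Among the remaining 14 genes, 4 of 8 paralogues and 0 of 6 genes with -ps names were open. The mitochondrial ribosomal protein genes, which serve the separate ribosome of that organelle, were open in 78 of 78 cases and in both replicates in 76. Of the 50 proteasome genes, which encode another large complex of fixed composition, 47 were open and 46 were open in both replicates. Complete openness was shared with the mitochondrial set.

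The fold of the standard promoters lay in a narrow band near the middle of that for all open genes. Their median series-level fold was 11.1, with quartiles of 8.91 and 12.5 and a range of 5.50 to 15.9, so the highest was 2.88 times the lowest. Over all 13357 open genes the median was 10.2, with quartiles of 7.89 and 12.6. The coefficient of variation was 21.1% for the standard genes and 31.9% for all open genes. Of the standard genes, 23.4% lay in the highest 25% of fold over all open genes and 14.3% in the lowest 25%. Mitochondrial ribosomal protein genes had a median of 12.4 and proteasome genes one of 12.2, both above the cytosolic ribosomal value. Their coefficients of variation were 25.4% and 26.6%, also below that of all open genes. In a bulk library, a site open in a share of the cells and a site partly open in all of them cannot be told apart.

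**Figure D1:**
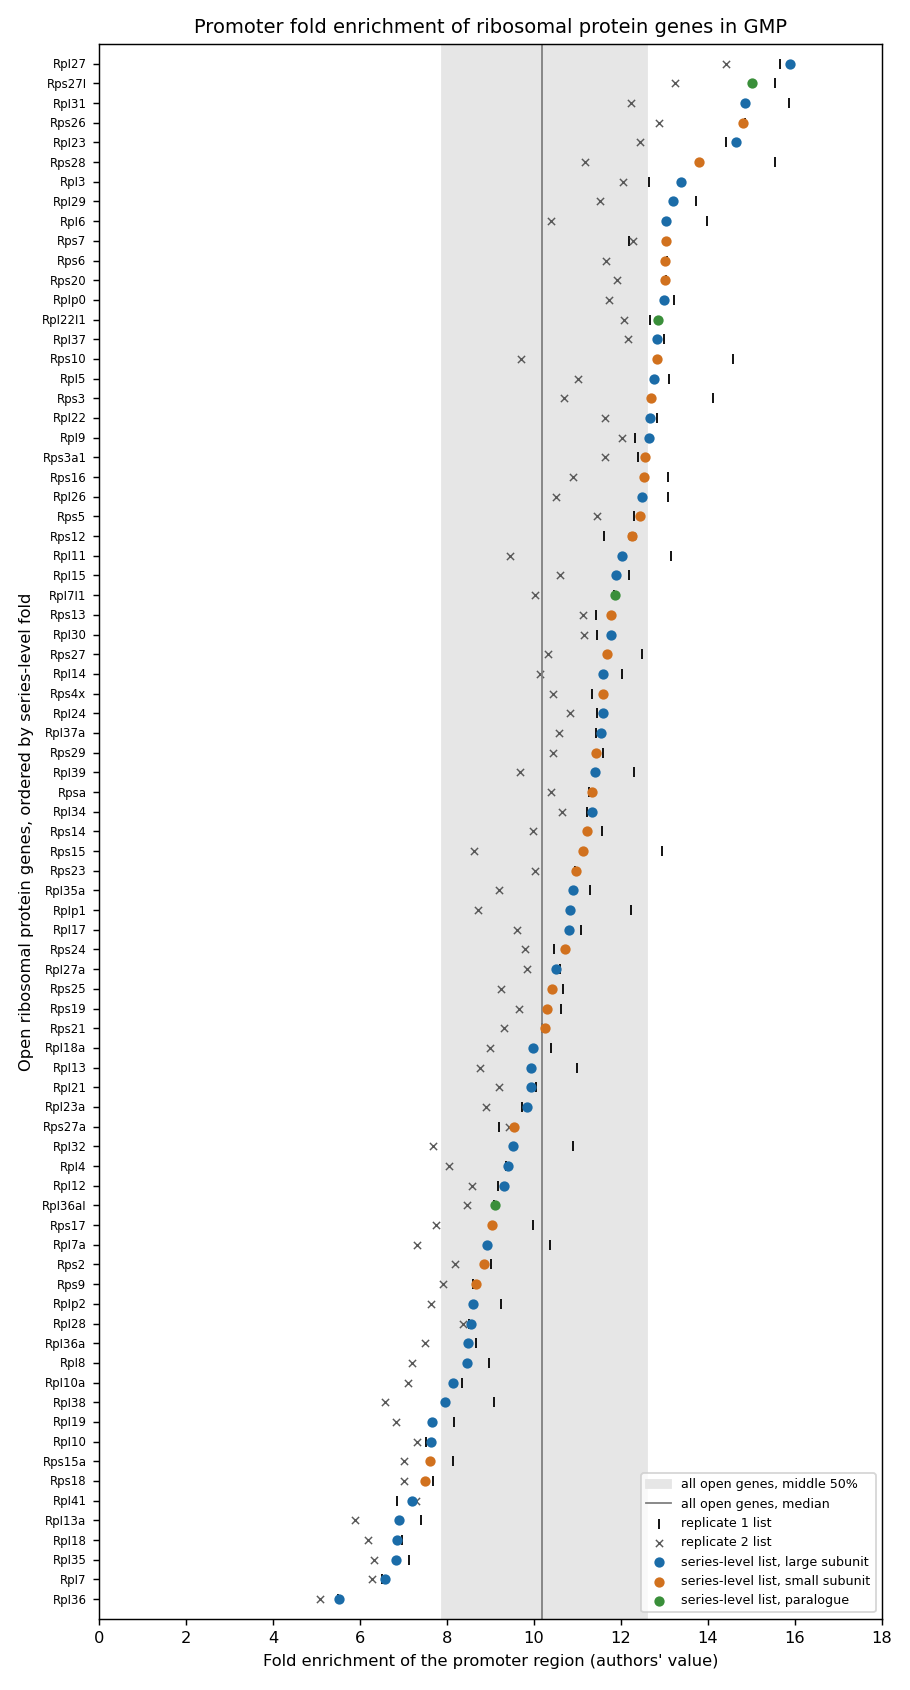
Authors' fold enrichment (horizontal axis, no unit) of the promoter region of the open ribosomal protein genes reported here, ordered by the series-level value (coloured by class), with replicate 1 as a bar and replicate 2 as a cross. The grey line and band mark the median (10.2) and the middle 50% of all open genes, and the ribosomal genes run from 5.50 at Rpl36 to 15.9 at Rpl27.

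The same placement was seen in each replicate. In replicate 1 the standard genes had a median fold of 11.3 against 10.7 for all open genes, and in replicate 2 one of 9.67 against 9.29. Folds of separate lists are not on a common level, so each was also ranked among all regions of its own list. The 81 open genes had a median percentile of 71.6 in replicate 1 and 73.3 in replicate 2, against 66.3 and 69.2 for all open genes. Across the 77 standard genes, the replicates' folds correlated with Pearson's r = 0.87 and Spearman's rho = 0.855, as a description over genes that share both libraries. The corresponding values over 12144 genes open in both were 0.903 and 0.905. A standard gene's percentile differed between replicates by a median of 7.51 points, against 6.31 for all genes. The gap reached 21.9 points at Rps15, which encodes a small subunit protein and had folds of 12.9 and 8.62. An order among genes of similar fold is therefore not resolved by 2 replicates.

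The highest promoters came from both subunits. Rpl27, a large subunit protein, had a fold of 15.9 in the series-level list, 15.6 in replicate 1 and 14.4 in replicate 2. Rpl31, another large subunit protein, had 14.9, 15.9 and 12.2. Rps26, which lines the exit of the mRNA channel, had 14.8, 14.8 and 12.9. These genes and the paralogue Rps27l (15.02, 15.5 and 13.2) held the first 4 places. Rpl23, which sits at the face where the subunits meet, followed with 14.6, 14.4 and 12.4. Rps28 of the small subunit had 13.8, 15.5 and 11.2. Rpl3, close to the catalytic centre of the large subunit, had 13.4, 12.6 and 12.05, and Rpl29 of the same subunit had 13.2, 13.7 and 11.5. Within this set the replicates placed the genes differently, with Rps28 above Rps26 in replicate 1 and below Rpl3 in replicate 2.

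The lowest promoters were mostly those of large subunit genes. Rpl36, a large subunit protein, had the lowest fold in every list, with 5.50 in the series-level list, 5.50 in replicate 1 and 5.08 in replicate 2. Rpl7 of the large subunit had 6.58, 6.499 and 6.27, and Rpl35, which lies by the exit of the peptide tunnel, had 6.83, 7.13 and 6.32. Rpl18 had 6.85, 6.95 and 6.19. Rpl13a of the large subunit, which also acts outside the ribosome in silencing of inflammatory mRNAs, had 6.89, 7.40 and 5.89. Rpl41, the smallest ribosomal protein, had 7.18, 6.85 and 7.27, and Rps18 in the head of the small subunit had 7.50, 7.67 and 7.02. Between Rpl36 and the next gene lay a gap in each list, whereas the others followed each other closely.

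Levels varied within each subunit and within structures of the ribosome. Large subunit genes had a median fold of 10.6 and small subunit genes one of 11.4, with overlapping ranges of 5.50 to 15.9 and 6.89 to 14.8. The 3 stalk genes encode the flexible arm that recruits elongation factors. Rplp0 had a fold of 12.99 in the series-level list, 13.2 in replicate 1 and 11.7 in replicate 2. Rplp1 had 10.8, 12.2 and 8.72, and Rplp2 had 8.60, 9.23 and 7.63. The 3 genes thus differed in fold although their products form 1 structure. Rpsa, the small subunit protein also known as a laminin receptor, had 11.3, 11.3 and 10.4. Rps27a, made as a fusion with ubiquitin, had 9.55, 9.19 and 9.43.

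The mouse counterparts of 19 genes mutated in Diamond-Blackfan anaemia were all open in both replicates, beside 55.8% of all genes. This follows from their being standard genes, all 77 of which were open in both. The 19 genes had a median fold of 12.03. They included both the highest standard gene, Rpl27, and Rpl35 and Rpl18 near the bottom. Rps19, the gene most often mutated in that disease, had a fold of 10.3 in the series-level list, 10.6 in replicate 1 and 9.65 in replicate 2. Rpl5 and Rpl11 join the ribosomal 5S RNA in a particle that restrains the p53 inhibitor Mdm2. Rpl5 had 12.8, 13.1 and 11.004, and Rpl11 had 12.03, 13.1 and 9.45. All 3 lay between the 8 lowest and the 8 highest genes.

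The paralogues split evenly between open and closed. Rpl22l1 had a fold of 12.8 beside 12.7 for its standard partner Rpl22, with 12.7 and 12.1 in the replicates for the paralogue and 12.8 and 11.6 for Rpl22. Rpl36al had 9.11, 9.07 and 8.46, beside 8.48, 8.67 and 7.49 for the X-linked Rpl36a. Rpl7l1 had 11.9, 11.8 and 10.03, and Rpl7 had 6.58, 6.499 and 6.27, so this paralogue was the higher in every list. Rps27l, a target of p53, had 15.02, 15.5 and 13.2, beside 11.7, 12.5 and 10.3 for Rps27, and was again the higher in every list.

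The other 4 paralogues had no promoter region. Rpl3l is the heart and skeletal muscle form of Rpl3, Rpl10l is a testis form that stands in for Rpl10 when the X is silenced in sperm precursors, Rpl39l is a further form expressed in testis, and Rps27rt is a copy of Rps27. Their standard partners Rpl3, Rpl10, Rpl39 and Rps27 were open with folds of 13.4, 7.62, 11.4 and 11.7. The 6 genes with -ps names, Rpl10-ps3, Rpl36-ps4, Rpl36a-ps1, Rpl9-ps1, Rpl9-ps6 and Rps12-ps3, had none either. None of these 10 genes had a promoter region in either replicate's strict or looser list, or in the other 3 series-level lists. The nearest series-level summit lay between 3374 bp (Rpl3l) and 461920 bp (Rpl10l) away, so no gene stood close to the limit of 1000 bp from outside. Absence from a list means only that no row reached that list's threshold.

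Most closed genes had few CpG dinucleotides around the start. The ratio of observed to expected CpG within 500 bp of the TSS, high in CpG islands, was between 0.171 (Rpl3l) and 0.72 (Rpl10l) among the 10, and was under 0.6 in all but Rpl10l. Over the standard genes its median was 0.817. Over all protein-coding genes the median was 0.575, and over open ones 0.720. Among genes with a ratio of at least 0.6, 9370 of 10406 were open, as were 75 of 75 standard genes. Within that class the median fold was 11.1 for the standard genes and 10.4 for all open genes. The median GC content was 57.1% for the standard genes and 58.8% for all open genes. Across the 77 genes the fold was close to unrelated to GC (r = 0.0522) and to the CpG ratio (r = 0.138), given as descriptions over genes of the same libraries.

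Width in the series-level list was close to that of other open promoters apart from a few genes. The standard regions had a median width of 889 bp, against 880 bp for all open genes. In the replicates' own lists the medians lay further apart, at 852 against 823 bp in replicate 1 and 861 against 785 bp in replicate 2. The widest series-level region was that of Rpl7, at 2262 bp with 7 summits, reaching 1675 bp upstream of the TSS. Rpl10, a protein added late in maturation of the large subunit, had 1708 bp, the paralogue Rpl36al 1396 bp and Rps29 1356 bp. The narrowest were those of Rpl13 (514 bp), Rpl31 (575 bp) and Rps15 (584 bp). Rpl7 joined the second lowest fold with the largest width and Rpl31 a fold among the highest with a narrow region. Over the 77 genes, width and fold had r = 0.0525 and rho = 0.234.

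**Figure D2:**
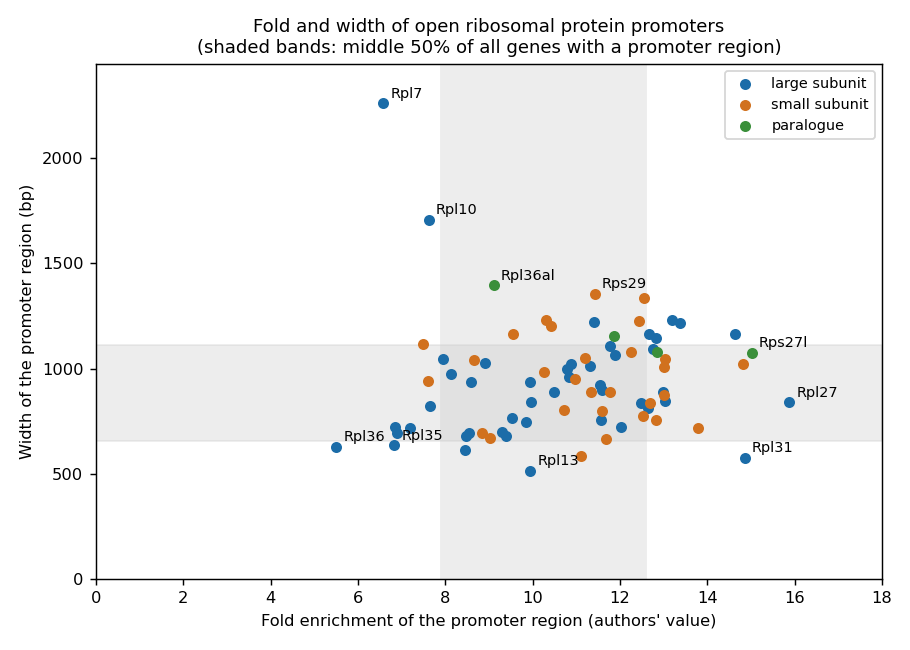
Width in bp (vertical axis) against the authors' fold (horizontal axis) for the open ribosomal protein promoters reported here, coloured by class, with shaded bands for the middle 50% of all open genes. Rpl7 (2262 bp) and Rpl10 (1708 bp) stand above the rest at low fold, and Rpl31 (575 bp) is narrow at high fold.

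The summits of the ribosomal protein promoters lay within 100 bp of the TSS more often than those of all open genes. Relative to the reference TSS, the principal annotated start of each gene, the standard summits had a median position of -23 bp with quartiles of -67 and 15 bp, negative values being upstream. For all open genes the median was -35 bp with quartiles of -114 and 46 bp. From the RefSeq start, the order of the medians turned, with -54 bp for the open members and -42 bp for all open genes, whereas the shares within 100 bp were 81.97% and 53.95%. The summit lay within 100 bp of the reference TSS in 65 of the 81 open members and in 61 of 77 standard genes (79.2%), against 51.8% of all open genes. Within 250 bp the shares were 90.9% and 70.4%. The share upstream of the TSS was similar, at 64.9% and 64.4%. The region covered the TSS in 74 of 77 standard genes (96.1%) and in 81.1% of all open genes. It did so as often in mitochondrial ribosomal protein genes (97.4%) and open proteasome genes (97.9%). Among all open genes with a CpG ratio of at least 0.6 the share was 89.0%.

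The closeness of the summit to the TSS was shared in part with other housekeeping sets. Summits lay within 100 bp in 70.5% of mitochondrial ribosomal protein genes and 76.6% of open proteasome genes. Among open genes with a CpG ratio of at least 0.6 the share was 55.8%, and it was 80.0% for the standard ribosomal protein genes of that class. In replicate 1 alone the share over the open members was 80.25%, and in replicate 2 alone it was 77.78%. The replicates placed a standard gene's summit a median of 9 bp apart. In 59 of 77 standard genes (76.6%) the gap was at most 20 bp, against 79.2% of all genes open in both.

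**Figure D3:**
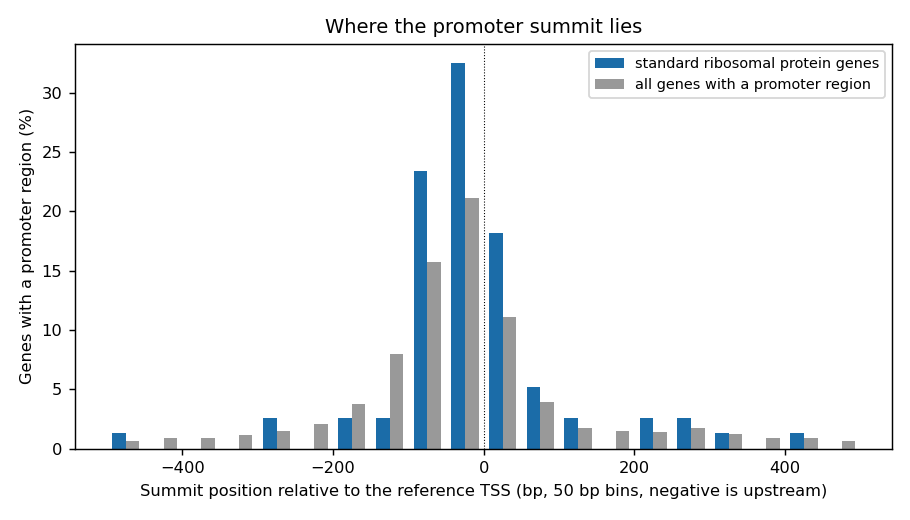
Share of genes (percent, vertical axis) by the distance of the promoter summit from the reference TSS in bins of 50 bp (horizontal axis, cut at 500 bp on each side), for the 77 standard ribosomal protein genes and for all open genes. The ribosomal summits gather in the bins next to the TSS, with 79.2% within 100 bp against 51.8%.

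In 7 genes the summit lay over 250 bp from the reference TSS. Rps25, a small subunit protein used in some forms of internal initiation, had its summit at 507 bp, and at 509 and 505 bp in the replicates. Rpl35 had 449, 450 and 447 bp, and Rpl30 327, 322 and 333 bp. In all 3 the replicates agreed on a summit downstream of the reference TSS. Rpl4, whose loop lines the peptide tunnel, had -492, -487 and -499 bp, and Rpl13a had -289, -284 and -296 bp. The other two genes had summits that differed between replicates. Rpl19, which takes part in a bridge between the subunits, had -271 bp in the series-level list, 40 bp in replicate 1 and -267 bp in replicate 2. Rplp2 had 257, 259 and -109 bp.

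For most of these genes the annotation offers another start. The nearest annotated TSS of the gene was within 100 bp of the summit in 4 of 7 (Rps25 at -49, Rpl30 at -91, Rplp2 at -85 and Rpl19 at -57 bp). The RefSeq start was within 100 bp in 3 of 7 (Rps25 at -68, Rpl35 at -44 and Rplp2 at -24 bp). At Rpl35 the RefSeq start lies 493 bp from the reference TSS, so the sequence printed above for this gene lies outside the stretch around its summit. The chosen summits of Rpl4 and Rpl13a were far from every start examined. The region of Rpl13a held another summit at -39 bp with a fold of 6.75, close to the 6.89 of the chosen one. Rpl19 likewise had one at 43 bp (7.62, chosen 7.66) and Rplp2 one at -109 bp (8.35, chosen 8.60). Rpl4 had a second region with its summit at 40 bp and a fold of 8.55, beside 9.40 for the chosen region, which it shares with the oppositely oriented gene Zwilch. A RefSeq start was found for 57 of 77 standard genes and differed from the reference TSS by a median of 16 bp, and by over 100 bp in 12.

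**Figure D4:**
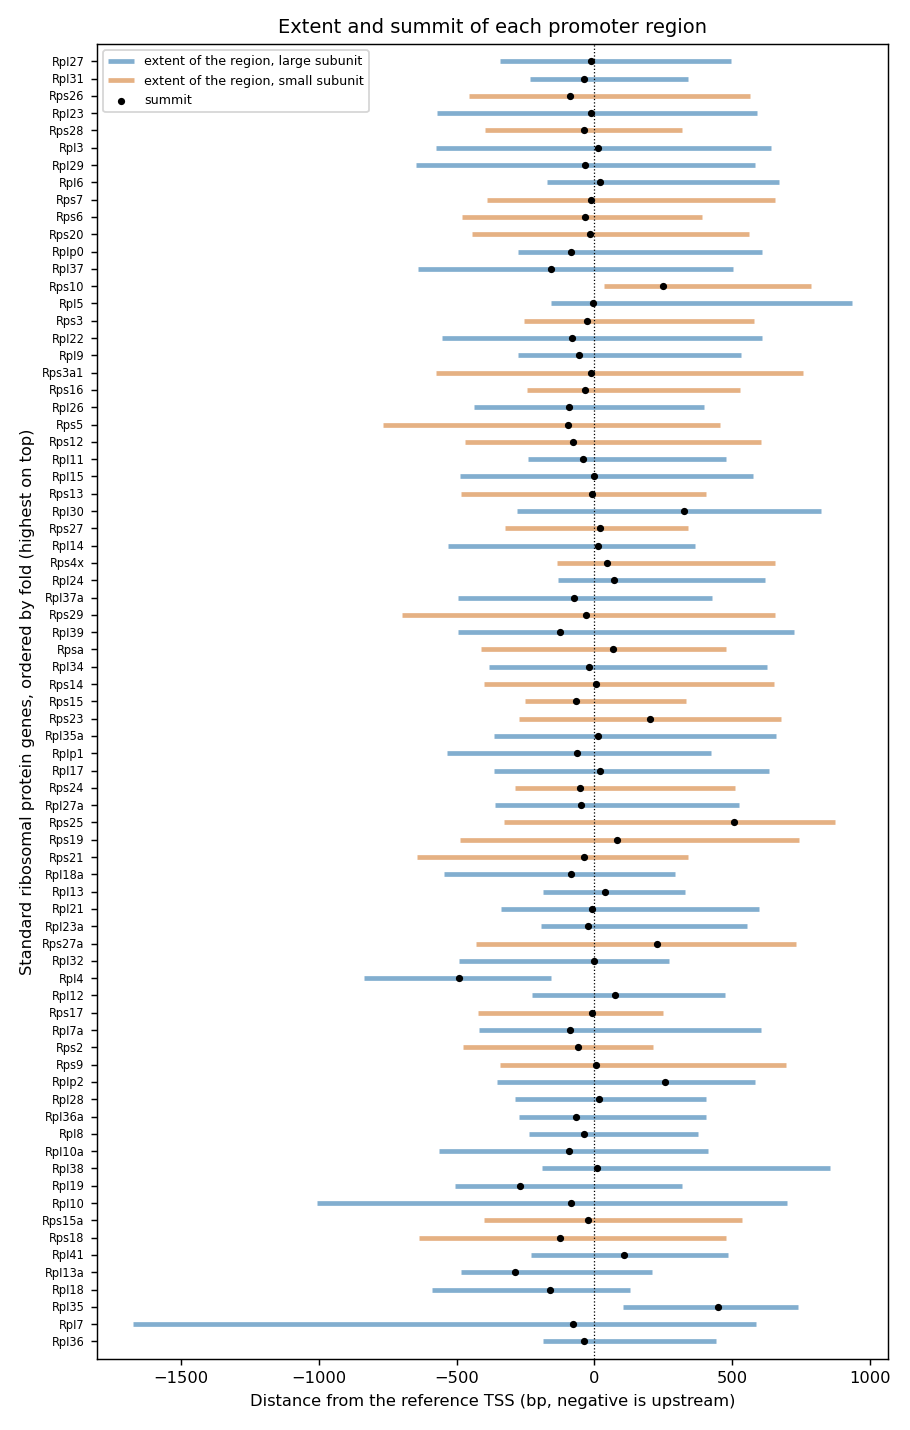
Extent (bars) and summit (dots) of the promoter region of the standard ribosomal protein genes reported here as distance from the reference TSS in bp, negative upstream, ordered by fold with Rpl27 on top and coloured by subunit. Most bars span the TSS (74 of 77 over all standard genes), with Rpl7 reaching 1675 bp upstream. Rpl35 and Rps10 lie wholly downstream of it and Rpl4 wholly upstream.

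Promoter sequences were searched from 150 bp before to 50 bp after the reference TSS for consensus letters of 10 factors on both strands. These were SP/KLF GGGCGG, ETS CCGGAAG, YY1 AAGATGG, the core of the cAMP response element TGACGT, NFY CCAAT, the E-box CACGTG, NRF1, PU.1 GAGGAAGT, CEBP TTGCNNAA and RUNX TGTGGT. Both the pyrimidine initiator TCTTT, from 10 bp before to 15 bp after the TSS, and the TATA box TATAA, from 40 to 15 bp before it, were sought on the sense strand. Matches to different motifs may overlap, as SP/KLF and ETS do at Rpl8, and a palindromic run such as a full cAMP response element counts on each strand. A match describes letters in a window and is not a bound site.

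The letters of ETS factors, a family of activators with many members in blood cells, were found in 24 of 77 standard promoters (31.2%, 95% Wilson interval 21.9 to 42.2%). The share was 9.86% over all genes and 14.7% over open genes. The first base of the 31 sites had a median position of -27, and 22 were on the sense strand. Rpl11, Rpl26, Rpl31, Rpl37 and Rpl8, printed above, show the site on either side of the TSS. Standard promoters with an ETS match had a median fold of 11.6 and those without 10.9. Over all open genes the same values were 11.5 and 9.93. Within 50 bp of the summit, 22.1% of standard genes and 10.5% of all open genes had a match.

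The letters TCTTT, searched as the pyrimidine initiator, were present in 9 of 77 standard genes (11.7%, interval 6.27 to 20.8%). They were present in 2.33% of all genes and 1.88% of open genes. Other pyrimidine runs at the start were not counted, such as those printed above for Rpl31 and Rpl36. The share of genes with any such run was not measured. The shorter letters CTTT in the same window, chosen after seeing the data, were found in 22.1% of standard genes, 8.85% of all genes and 7.64% of open genes. At Rpl5, Rpl8 and Rpl26 the match lies 7 to 8 bases after the annotated start. YY1 letters were found in 9 of 77 (11.7%, interval 6.27 to 20.8%), against 4.59% of all genes and 5.22% of open genes, and 6 of the 9 sites lay after the TSS. In the other windows the YY1 share was higher as well, but its interval no longer lay above both references. Within 50 bp of the summit the share was 2.597%, against 2.09% of open genes. From 500 bp before to 100 bp after the TSS it was 18.2% (interval 11.2 to 28.2%), against 12.3% of all genes and 12.95% of open genes. Around the RefSeq start it was 10.7% (interval 5.004 to 21.5%), against 4.89% and 5.53%. The ETS interval lay above both shares in each of these windows.

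SP/KLF letters were in 46.8% of standard genes (interval 36.0 to 57.8%), 42.2% of all genes and 58.2% of open genes, the last just above the interval. For the other motifs the interval held the share of open genes. The core of the cAMP response element was in 14.3% (interval 8.17 to 23.8%), with 7.34% of all genes and 9.78% of open genes. Its interval thus lay above the share of all genes but not above that of open genes. Around the RefSeq start its share was 17.9%, against 8.09% of all genes and 10.3% of open genes. NFY letters were in 25.97% of standard genes and 30.0% of all genes, and Rplp0 held a pair within the printed stretch. RUNX letters were in 10.4% against 10.1% of all genes, CEBP in 5.20% against 6.14%, the E-box in 5.20% against 5.92%, and PU.1 in 2.597% against 2.46%. These include the letters of factors that act in myeloid cells, PU.1, CEBP and RUNX. NRF1 was in 2.597% against 1.08%, and the TATA box in 2.597% against 4.26%, each being 2 genes. Around the RefSeq start the TATA box was in 4 of 56 standard genes (7.14%, interval 2.81 to 16.98%), against 4.65% of all genes and 1.98% of open genes. Its side of the share over all genes thus depended on the start used. From either start the standard share was above that of open genes, which was 1.78% at the reference TSS.

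**Figure D5:**
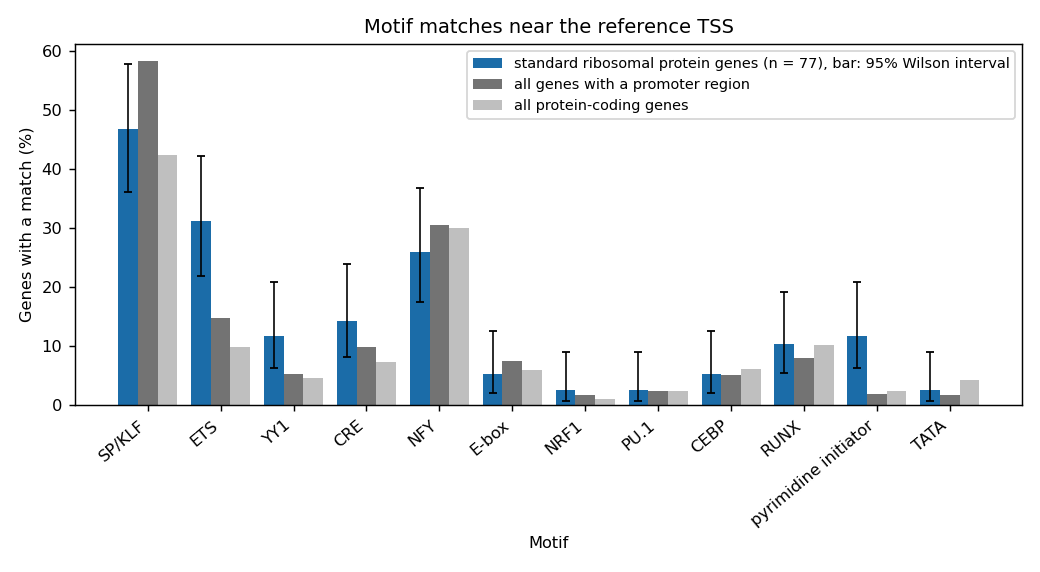
Share of genes (percent, vertical axis) with a match to each of 12 motifs for the 77 standard ribosomal protein genes, all open genes and all protein-coding genes, with 95% Wilson intervals on the ribosomal bars for counting error only. The intervals of ETS (31.2%), YY1 (11.7%) and the pyrimidine initiator (11.7%) lie above both reference bars in this window, that of YY1 in none of the other windows.

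The ribosomal protein genes were compact and often hosts of small nucleolar RNAs (snoRNAs), which guide modification of ribosomal RNA. Their median length was 3289 bp, against 17414 bp over all protein-coding genes. A snoRNA gene lay inside 30 of 77 standard genes (39.0%), 58 snoRNA genes in all, against 1.28% of all genes. Rpl4 held 5 and Rpl13a held 4. In 39.0% of the standard genes no accessible region over 1000 bp from every TSS was nearest to the gene, a share close to the 38.2% of all genes.

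Another protein-coding TSS on the opposite strand lay within 1000 bp for 12 of 77 standard genes (15.6%) and for 13 of all 91, against 10.4% of all genes. At CpG ratios of at least 0.6 the standard share was the lower, at 14.7% against 18.3% of all genes. Such a TSS lay near 31 of 78 mitochondrial ribosomal protein genes (39.7%) and 10 of 50 proteasome genes. The promoter region also served another gene in 16.9% of standard genes and 18.6% of all open genes. In all 13 of the ribosomal protein pairs the region chosen for the ribosomal protein gene also counted as a promoter region of its partner. The assignment favours this, because the starts of a pair lie within 1000 bp of each other. At Rpl4 the region lay wholly upstream of the reference TSS. The pairs included Rps28 with Ndufa7, a subunit of respiratory complex I, Rpl9 with Lias, which makes lipoic acid, Rps18 with Vps52, a tethering factor of endosomes, and Rpl36al with Mgat2, an enzyme of glycan synthesis. These examples were chosen after their values had been seen. The folds of these shared regions ran from 6.85 at Rpl18 to 13.8 at Rps28, across most of the family's range. No region served 2 ribosomal protein genes.

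Chromosome 7 held 14 of the 77 standard genes (18.2%), with 9.3% of all protein-coding genes. Their median fold was 8.85, against 11.3 for the 63 standard genes elsewhere. All open genes on chromosome 7 had a median of 9.93 and those elsewhere 10.2. Of the 14, 4 were in the lowest 25% of fold over all open genes, as were 7 of the 63. The 4 X-linked genes are present in 1 copy in male cells. Rpl10 had a fold of 7.62 in the series-level list, 7.51 in replicate 1 and 7.30 in replicate 2, and Rpl36a had 8.48, 8.67 and 7.49. Rpl39 had 11.4, 12.3 and 9.67, and Rps4x had 11.6, 11.3 and 10.4. Their median was 9.94 against 11.1 for autosomal standard genes, whereas all open genes on the X had a median of 12.1 against 10.1 on autosomes. With 4 genes this order rests on Rpl10 and Rpl36a.

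Processed pseudogenes, the reverse-transcribed copies of mRNAs that ribosomal protein genes leave in large number, were a contrast to their parents. Of 290 with the name of a ribosomal protein gene, 14 had a summit within 1000 bp of their start (4.83%), against 530 of 10142 processed pseudogenes of any name (5.23%). Over 1000 bp from every protein-coding TSS the shares were 4.53% and 4.91%. Rps4l, annotated as a transcribed copy and therefore outside the rule, had a summit at -25 bp and a fold of 9.83. At 12 of the other 13 the summit was over 100 bp from the start, and Rps16-ps2 had it at 12 bp with a fold of 6.40.

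Other genes of translation were open as well. Fau encodes a ribosomal protein fused to a ubiquitin-like protein, and Rack1 is a scaffold on the small subunit. Their names fall outside the rule, and they had folds of 8.03 and 8.83, both below the standard median. The 13 genes of elongation factors and other mRNAs with pyrimidine tracts were all open in both replicates (all genes 55.8%), with a median fold of 10.7. The 16 genes of ribosome biogenesis, which make and process ribosomal RNA or assemble subunits, were also all open in both, with a median of 12.03. Against these, the open GMP and myeloid markers had a median fold of 6.84, with a range of 4.33 to 13.9. Mpo, the neutrophil granule peroxidase, had 5.50, whereas the marker Ms4a3 had 13.9. The open markers had a median CpG ratio of 0.271, against 0.817 for the standard genes. Whether this difference bears on the folds was not tested.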

How the data were processed

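ATAC-seq of 2 GMP replicates (total depth unknown) was analysed from the authors' deposited peak lists on mm10. Fold enrichment is the deposited ratio per row, and its denominator is unstated. The -log10 q and the summit offset (unit: other, in bp) are the authors' values as deposited. Tools for alignment and peak calling, with any Tn5 shift, count as not given in the sources used here. Main values rest on the conservative list of the whole series, which passed the irreproducible discovery rate threshold between replicates and uses both. Replicate values come from each replicate's own thresholded list.

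Rows that overlap by 1 bp or more were joined, keeping the summit and fold of the row with the highest fold. Promoters were assigned with GENCODE vM21, and sequence and CpG values come from GRCm38.p6, whose chromosome lengths hold every region and gene end. The reference TSS was that of the principal, then basic, best supported and longest coding transcript. RefSeq starts were a second source. Python 3.11.15, numpy 2.4.6, pandas 2.3.3 and scipy 1.17.1 were used, and the assignment was tested on simulated data. Of the columns of per-sample values, 0 were left unmapped.

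The genes and lists were chosen with earlier results of these data known. Genes named in the text are those with no promoter region, the 8 highest and 8 lowest by fold, the 4 widest and 4 narrowest, summits over 250 bp from the TSS, paralogue pairs, X-linked, stalk, ubiquitin fusion, Rpsa and Diamond-Blackfan genes (Rps19, Rpl5, Rpl11). A few genes are counted in the totals but not reported singly here. Others, such as the largest snoRNA hosts and Rps15 for its replicate gap, were named after their values were seen. Alternatives covered the list, window, TSS, merging, overlap, motif window, replicates and gene class. Intervals on shares cover counting error only. Genes are not replicates, so no test was made over them.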

Additional observations from a re-analysis of the deposited data

How the results depend on the processing

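Of 110 values recomputed under other settings, 81 stayed within the replicate spread, the interval or 1.5 times the count and 29 moved. Set beside all genes under the same setting, 11 of 93 values changed side. These were the median position from the RefSeq start (-54 bp, all genes -42 bp), the width at CpG ratios of at least 0.6 (936 bp, all genes 943 bp) and 9 motif shares. Around the RefSeq start the TATA share was 7.14% (all genes 4.65%) and the RUNX share 3.57% (9.38%). Within 50 bp of the summit they were SP/KLF 39.0% (43.5%), RUNX 3.9% (5.30%), PU.1 1.3% (2.34%), NRF1 0% (0.479%) and the E-box 5.2% (3.97%). From 500 bp before to 100 bp after the TSS they were PU.1 2.6% (4.82%) and the E-box 18.2% (12.1%). The open count was 81 in the other lists, windows and merging settings and 69 with only regions of fold at or above the list median. Leaving out each replicate gave 81 to 81 open genes, a median fold of 9.694 to 11.34, a width of 862 to 867 bp, a median position of -26 to -25 bp and 77.78 to 80.25% within 100 bp. The width (923 bp over the open members) became 899 bp with a 2500 bp window, 936 bp both with the fold filter and with CpG ratios of at least 0.6 (added after seeing the data), and 889 bp for standard genes only. The median position (-26 bp) became -23 bp with the fold filter, -25 bp with the region nearest to the TSS, -23 bp for standard genes, -29 bp from the nearest TSS and -54 bp from the RefSeq start. The share within 100 bp became 85.51% with the fold filter and 88.89% from the nearest TSS. From 500 bp before to 100 bp after the TSS, further motif shares were 68.8% for SP/KLF, 48.0% for NFY, 19.5% for CEBP and 32.5% for RUNX. Within 50 bp of the summit they were 2.6% for YY1 and 0% for CEBP, and around the RefSeq start 1.79% for the E-box and CEBP. The letters CTTT gave 22.1% (added after seeing the data). The causes were not tested. Read depth is unknown, so a gene missing from a list cannot be given a detection limit. No paired analysis was possible because the series has 1 group.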
